A study of Homo sapiens with 10 samples.

Results

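The 48 genes described here belong to 4 pathways that mend DNA: 19 genes of base excision repair, 15 of nucleotide excision repair, 5 of mismatch repair and 9 of end joining. They were chosen by symbol, and 46 of them had a value among the 17687 genes measured. ERCC6, of nucleotide excision repair, and POLM, of end joining, had no value under their symbols. Each of the 46 genes was measured by a single probe set.

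The series holds 10 Affymetrix arrays (Clariom S, human) of CWR22Rv1 and PC3, established prostate cancer cell lines grown with or without arginine. CWR22Rv1 cells were followed over time on 3 arrays, 1 of control cells, called 0 h and labelled as 24 h in control medium, 1 of cells starved for 24 h and 1 of cells starved for 48 h. A separate experiment in CWR22Rv1 cells held 1 array of control cells, 1 array of starved cells and 1 array of starved cells given dimethyl α-ketoglutarate (DMKG), a cell-permeable form of α-ketoglutarate, all after 48 h. In PC3 cells there were 2 control and 2 starved arrays at 48 h. That the CWR22Rv1 arrays form 2 experiments was inferred from how their samples are titled, and no CWR22Rv1 gene was called at 48 h in a model without a term for the experiment. The arginine concentration of control medium was 200 mg/L. DMKG is labelled as 5 mM, while the methods of the study give the dose in μM, so the dose is unsettled. The labels do not say whether replicates were separate cultures, so the spread between them may be technical. No CWR22Rv1 condition had a second array within an experiment. The spread behind the p-values, also those of CWR22Rv1, comes from the PC3 replicates and from the gap between both CWR22Rv1 responses at 48 h. In the time course, the cells starved for 48 h had also been in their medium for longer than the control.

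Values are on a log2 scale, on which a step of 1 is a 2-fold change. FOLH1, a prostate surface antigen, lay between 10.68 and 13.33 in CWR22Rv1 cells and between 3.33 and 3.80 in PC3 cells, and VIM, the filament protein vimentin, between 5.94 and 6.39 and between 15.04 and 15.23, so these markers kept the lines apart. The 95th percentile of the 612 negative control probe sets lay between 6.78 and 8.75 on the arrays. NTHL1, NEIL1, NEIL2, MPG and POLL lay at or below it on all 10 arrays, and APEX2 on 9, ERCC8 on 8, and LIG1 and XPA on 7. LIG3 did on 5, MUTYH on 4, and LIG4, MSH3 and PMS1 on 3. DCLRE1C and POLB did on 2, and NEIL3, TDG, MBD4 and XRCC4 on 1. Values so low may not show a further fall. In the DMKG experiment many genes had exactly equal values on several arrays, among them 7 of the 46 repair genes in the control and starved arrays (21.6% of all genes) and 9 in the starved arrays with and without DMKG (26.3% of all genes).

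In base excision repair a glycosylase removes a damaged or wrong base, an endonuclease opens the strand at the empty site, and a polymerase and a ligase fill and seal the gap on a scaffold that is drawn in by poly(ADP-ribose) polymerases. Nucleotide excision repair cuts out a short stretch around a bulky lesion, such as one left by ultraviolet light, after the helicase complex TFIIH has unwound the DNA. Mismatch repair corrects errors that replication leaves behind, through MutS complexes that find the mispair and MutL complexes that lead to its removal. Non-homologous end joining holds and seals broken ends, with the Ku ring, a kinase, the nuclease Artemis and DNA ligase IV. Arginine is taken up from the medium by tumour cells that make little of it themselves, and α-ketoglutarate is a cosubstrate of histone demethylases.

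In CWR22Rv1 cells the median response of these genes at 48 h was small, and single genes went both ways. A gene counted as called when limma gave an adjusted p under 0.05 (Benjamini-Hochberg over all genes). LIG4 and PARP2 rose, and DCLRE1C, GTF2H5 and ERCC8 fell, which is 5 of 46 repair genes against 6.94% of all genes called. Of all genes 3.74% fell and 3.20% rose. The median difference over the 46 genes was -0.07, against 0.02 over all genes. In PC3 cells 14 of 46 repair genes were called, against 19.6% of all genes. There 11 of the 46 fell and 3 rose, where 10.0% of all genes fell and 9.59% rose, and the median over the 46 genes was -0.33 against 0.02 over all genes. LIG4 rose and DCLRE1C fell in both lines, and no other repair gene was called in both.

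**Figure D1:**
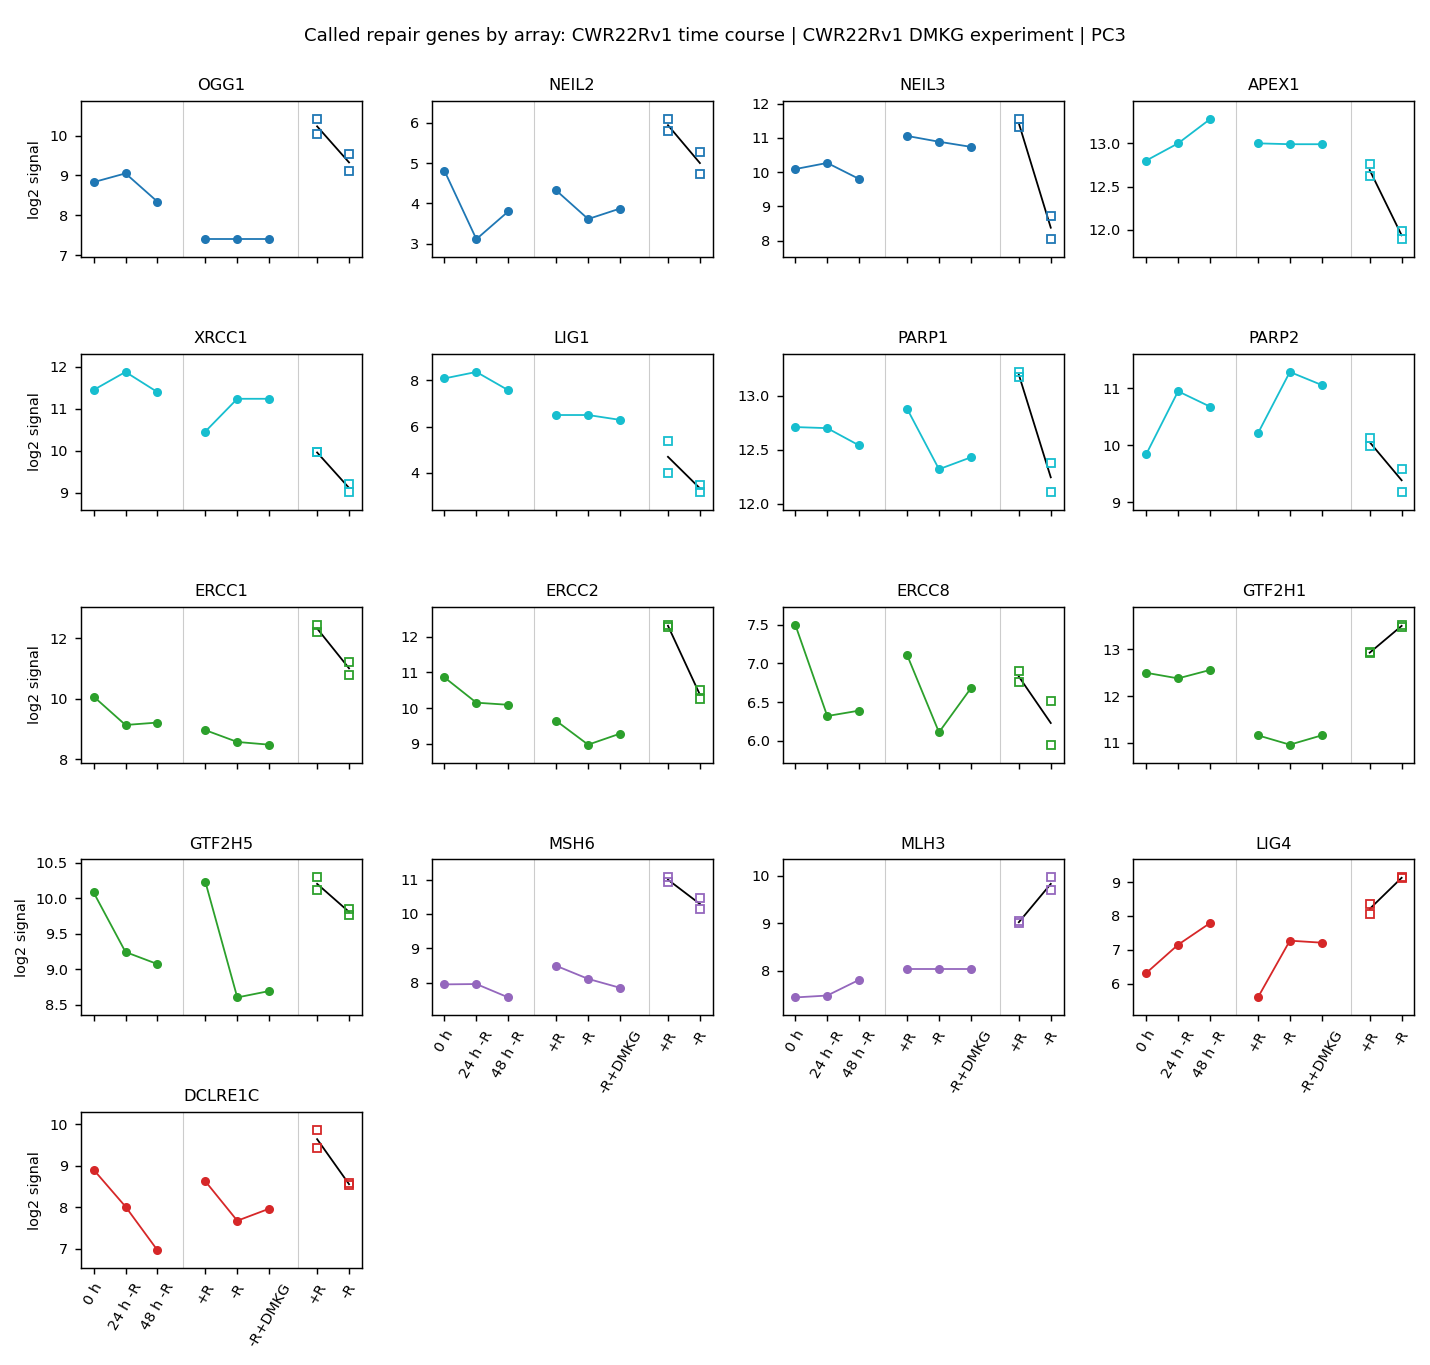
Log2 signal (vertical axis) of the 17 repair genes called in at least 1 comparison, with an axis range of its own for each gene. In each panel the left 3 points are the CWR22Rv1 time course, the middle 3 the CWR22Rv1 DMKG experiment and the open squares the 2 control (+R) and 2 starved (-R) PC3 arrays, whose means are joined by a black line. NEIL3 falls from 11.43 to 8.38 between the PC3 means and stays between 9.80 and 11.06 in CWR22Rv1 cells, while LIG4 rises and DCLRE1C falls in all 3 sets.

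Among the genes of end joining, LIG4 and DCLRE1C moved in opposite directions. LIG4 is the ligase that seals the ends. Its values in the CWR22Rv1 time course were 6.31 at 0 h, 7.15 at 24 h and 7.79 at 48 h, and in the DMKG experiment 5.59 in control cells, 7.27 in starved cells and 7.21 in starved cells with DMKG. In PC3 cells LIG4 was at 8.07 and 8.35 in control and 9.14 and 9.12 in starved cells. Each starved array lay above the controls of its own set. LIG4 rose by 1.59 in CWR22Rv1 cells (limma, standard error 0.18, adjusted p = 0.00588) and by 0.92 in PC3 cells (standard error 0.18, adjusted p = 0.0106). Both CWR22Rv1 control arrays lay within the range of the negative controls for LIG4, so the size of the rise in that line is uncertain. The response in PC3 minus that in CWR22Rv1 cells, called the difference between the lines from here on, was -0.67 (95% interval -1.26 to -0.07, adjusted p = 0.203).

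DCLRE1C, the nuclease Artemis, which trims the ends before they are joined, was at 8.91 at 0 h, 8.02 at 24 h and 6.97 at 48 h of the time course. In the DMKG experiment it was at 8.63 in control, 7.68 in starved and 7.97 in starved cells with DMKG. In PC3 cells its values were 9.43 and 9.86 in control and 8.58 and 8.54 in starved cells. All starved arrays lay below their controls, and the array at 48 h of the time course was the lowest of the 10. DCLRE1C fell by 1.45 in CWR22Rv1 cells (limma, standard error 0.26, adjusted p = 0.0197) and by 1.09 in PC3 cells (standard error 0.26, adjusted p = 0.0234). The difference between the lines was 0.36 (95% interval -0.50 to 1.22, adjusted p = 0.655). The difference in CWR22Rv1 cells was -1.94 in the time course and -0.96 in the DMKG experiment.

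The remaining 6 genes of end joining with a value were not called in any comparison. Their fitted differences ran from -0.49 to 0.47 in CWR22Rv1 and from -0.55 to 0.60 in PC3 cells. They encode both Ku subunits (XRCC5 and XRCC6), the kinase that Ku recruits (PRKDC), the partner of the ligase (XRCC4), a bridging factor (NHEJ1) and a polymerase (POLL). NHEJ1 had the largest response of these, with values of 8.69 and 8.73 in control and 9.26 and 9.36 in starved PC3 cells, a difference of 0.60 (adjusted p = 0.0923 from limma). It had 8.87, 9.03 and 9.10 along the time course and 9.0, 8.44 and 8.25 in control, starved and DMKG-treated cells of the other experiment. XRCC6 had the smallest, from 15.76 to 15.87 over the PC3 arrays, 16.15, 16.63 and 16.68 along the time course and 15.49, 15.80 and 15.77 in the DMKG experiment. XRCC4, the partner of LIG4, differed by -0.55 in PC3 cells (adjusted p = 0.133) and by 0.13 in CWR22Rv1 cells (adjusted p = 0.829).

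The promoter of DCLRE1C, where the study assayed repressive histone marks, has 2 annotated starts in RefSeq. The 250 bases before each are shown 5′ to 3′ in assembly GRCh38.p14, at chr10:14954433-14954682, minus strand, and at chr10:14954097-14954346, minus strand. Capitals mark the CCAAT box, searched as CCAAT on both strands, and each window holds it at 2 places.
DCLRE1C upstream start: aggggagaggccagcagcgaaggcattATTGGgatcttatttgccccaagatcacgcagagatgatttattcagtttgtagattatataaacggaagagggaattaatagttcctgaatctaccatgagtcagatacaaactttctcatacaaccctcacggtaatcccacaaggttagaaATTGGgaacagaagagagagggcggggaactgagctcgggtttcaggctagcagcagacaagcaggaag
DCLRE1C downstream start: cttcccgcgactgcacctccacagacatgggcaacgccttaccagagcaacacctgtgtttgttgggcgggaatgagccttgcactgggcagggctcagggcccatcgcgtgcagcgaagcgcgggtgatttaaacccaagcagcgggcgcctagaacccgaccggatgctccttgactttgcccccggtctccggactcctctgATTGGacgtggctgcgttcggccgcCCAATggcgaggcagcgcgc
The CCAAT box was found in 32.0% of the 35116 promoter windows of this length in the RefSeq table. LIG4 has 5 such windows, of which 2 hold the box and 2 hold the cyclic AMP response element TGACGTCA. A match is a description of the letters and says nothing of a factor bound there.

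Base excision repair, with 19 of the 46 genes, held 7 of the 11 falls in PC3 cells. None of the 19 rose, where 10.0% of all genes fell and 9.59% rose. Of the 19 genes 16 lay below 0, as did 8468 of all 17687 genes, and the median was -0.63. All 8 genes of the later steps lay below 0 in PC3 cells, with a median of -0.74 and 4 called. In CWR22Rv1 cells none of the 19 fell and PARP2 rose, where 3.74% of all genes fell and 3.20% rose. There 12 of 19 lay below 0, as did 8355 of all 17687 genes, and the median was -0.23. Beside this, all 13 genes of a cell division list (among them MKI67, TOP2A and the MCM helicase subunits) fell in PC3 cells, with a median of -3.01, and 5 of 13 fell in CWR22Rv1 cells, with a median of -0.34. Its part in the changes of the repair genes was not tested. In bulk RNA fewer dividing cells and less RNA per cell cannot be told apart.

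NEIL3, a glycosylase that removes oxidised bases and is known to be made mainly in dividing cells, had the largest change of the 46 genes. Its values in PC3 cells were 11.55 and 11.31 in control and 8.04 and 8.71 in starved cells. The groups were far apart. In CWR22Rv1 cells it was at 10.09, 10.27 and 9.80 at 0, 24 and 48 h, and at 11.06 in control, 10.89 in starved and 10.74 in DMKG-treated cells of the other experiment. NEIL3 fell by 3.05 in PC3 cells (limma, standard error 0.24, adjusted p = 0.000185) and differed by -0.23 in CWR22Rv1 cells (standard error 0.24, adjusted p = 0.694). The response in PC3 minus that in CWR22Rv1 cells was -2.83 (95% interval -3.62 to -2.04, adjusted p = 0.00639). This difference was not called when the DMKG experiment lost its control array or its array of starved cells without DMKG, and the fall in PC3 cells was called whichever of the 10 arrays was left out.

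The 250 bases before the start of NEIL3 (chr4:177309624-177309873, plus strand) hold TTTGAA, a form of the cell cycle homology region of cell cycle genes, 19 to 24 bases before the start, and a CCAAT box further up. Both are in capitals.
NEIL3 promoter: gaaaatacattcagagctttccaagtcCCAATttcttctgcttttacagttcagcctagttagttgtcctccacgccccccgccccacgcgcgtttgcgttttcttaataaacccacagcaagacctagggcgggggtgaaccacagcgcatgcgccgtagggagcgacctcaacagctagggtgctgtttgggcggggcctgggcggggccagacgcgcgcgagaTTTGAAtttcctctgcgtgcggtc
TTTGAA or TTCGAA, on either strand, was found in 14.3% of all windows and in 5 of 61 windows (8.20%) of the 41 repair genes that the table holds. TTTCCCGC, TTTCGCGC, TTTGCCGC or TTTGGCGC, forms of the E2F site, was found in 2.79% of all windows and in 6 of the 61, those of LIG1, MSH3, PMS2, UNG and XPC. The amino acid response element TGATGNAA was found in 3.14% of all windows and in 1 of the 61, that of NTHL1. Windows of a gene with several starts can overlap.

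The glycosylases OGG1, for oxidised guanine, and NEIL2, for oxidised bases in open DNA, also fell in PC3 cells. OGG1 was at 10.41 and 10.05 in control and 9.53 and 9.12 in starved cells, and fell by 0.90 (limma, standard error 0.23, adjusted p = 0.0289). In the DMKG experiment all 3 of its values were exactly equal at 7.40, and along the time course they were 8.83, 9.05 and 8.34. NEIL2 was at 5.79 and 6.09 in control and 4.72 and 5.28 in starved PC3 cells, and fell by 0.94 (standard error 0.24, adjusted p = 0.0271), all within the range of the negative controls. Its values in CWR22Rv1 cells were also low, at 4.81, 3.11 and 3.80 along the time course and 4.32, 3.61 and 3.87 in the DMKG experiment. The groups did not overlap for either gene in PC3 cells.

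The other 8 glycosylases were not called, with differences of -0.47 to 0.35 in CWR22Rv1 and -0.63 to 0.54 in PC3 cells. They act on oxidised, deaminated or alkylated bases: MUTYH, NTHL1, NEIL1, UNG, SMUG1, TDG, MBD4 and MPG. MBD4, for thymine opposite guanine at CpG sites, had the largest response, with 9.21 and 9.15 in control and 8.78 and 8.33 in starved PC3 cells, a difference of -0.63 (adjusted p = 0.0801). In CWR22Rv1 cells it was at 9.37, 9.47 and 9.36 along the time course and at 8.30, 8.72 and 8.68 in the DMKG experiment. MPG, for alkylated purines, had the smallest, with 6.88 and 5.93 in control and 6.12 and 6.06 in starved PC3 cells, whose ranges overlapped. It stood at 5.99, 6.37 and 6.10 along the time course and at 5.38 on all 3 arrays of the DMKG experiment.

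PARP1 makes most of the poly(ADP-ribose) at strand breaks, and PARP2 is the second enzyme of this kind. PARP2 was at 9.84, 10.95 and 10.68 at 0, 24 and 48 h, and at 10.21 in control, 11.29 in starved and 11.06 in DMKG-treated cells. In PC3 cells it was at 9.99 and 10.12 in control and 9.18 and 9.59 in starved cells. All starved CWR22Rv1 arrays thus lay above their controls and both starved PC3 arrays below theirs. PARP2 rose by 0.96 in CWR22Rv1 cells (limma, standard error 0.20, adjusted p = 0.0309) and differed by -0.67 in PC3 cells (standard error 0.20, adjusted p = 0.0508). The difference between the lines was -1.63 (95% interval -2.29 to -0.98, adjusted p = 0.0215). PARP1 was at 13.17 and 13.22 in control and 12.38 and 12.11 in starved PC3 cells and fell by 0.95 (standard error 0.19, adjusted p = 0.0118). It was at 12.71, 12.70 and 12.54 along the time course and at 12.88, 12.32 and 12.43 in the DMKG experiment, a difference of -0.36 at 48 h (adjusted p = 0.362).

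The 250 bases before the start of PARP2 (chr14:20343385-20343634, plus strand) are shown because this gene moved with opposite signs in the lines. Capitals mark TGACGTCA, which reads the same on both strands and lies 7 to 14 bases before the start.
PARP2 promoter: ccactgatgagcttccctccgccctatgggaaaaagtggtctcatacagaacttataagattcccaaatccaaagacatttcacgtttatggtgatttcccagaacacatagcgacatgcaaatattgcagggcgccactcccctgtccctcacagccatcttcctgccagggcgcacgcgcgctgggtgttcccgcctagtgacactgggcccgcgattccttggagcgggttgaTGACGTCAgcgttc
TGACGTCA was found in 1.65% of all windows and in 5 of the 61 windows of repair genes, those of PARP2, LIG4 and PMS2.

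The endonuclease APEX1, the scaffold XRCC1 and the replicative ligase LIG1 fell in PC3 cells. APEX1 was at 12.76 and 12.62 in control and 11.89 and 11.98 in starved cells, and fell by 0.76 (limma, standard error 0.19, adjusted p = 0.0275). XRCC1 was at 9.96 in both control arrays and at 9.21 and 9.02 in starved cells, and fell by 0.85 (standard error 0.23, adjusted p = 0.0338). The arrays of a group lay close together for these genes, unlike those of LIG1, at 5.39 and 4.0 in control and 3.49 and 3.18 in starved cells. LIG1 fell by 1.36 (standard error 0.40, adjusted p = 0.0492), all its PC3 values being within the range of the negative controls. The difference was -0.66 without the first and -2.05 without the second control array, so its size rests on the control used. In CWR22Rv1 cells XRCC1 was at 11.45, 11.88 and 11.40 along the time course and at 10.46 in control and 11.24 in both starved arrays of the DMKG experiment. APEX1 was at 12.80, 13.00 and 13.28 along the time course and between 12.99 and 13.00 in the DMKG experiment. LIG1 was at 8.08, 8.36 and 7.57 along the time course and at 6.50, 6.50 and 6.29 in the DMKG experiment.

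APEX2, POLB and LIG3, a backup endonuclease, the gap-filling polymerase and a ligase, were not called. APEX2 had the largest response of these, at 7.09 and 7.08 in control and 6.42 and 6.30 in starved PC3 cells (difference -0.72, adjusted p = 0.0783) and at 8.26, 7.16 and 6.92 along the time course (fitted difference at 48 h -0.82, adjusted p = 0.0915). In the DMKG experiment it was at 6.12 in control and 5.81 in both starved arrays. POLB had the smallest, at 8.85 and 8.82 in control and 8.74 and 8.48 in starved PC3 cells, and at 7.48, 7.05 and 7.83 along the time course and 8.15, 7.88 and 8.06 in the DMKG experiment.

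Of 14 genes of nucleotide excision repair with a value, 2 fell and none rose in CWR22Rv1 cells (median -0.06), where 6.94% of all genes were called. In PC3 cells 2 fell and 1 rose (median -0.13), where 19.6% of all genes were called. ERCC2 is the helicase of TFIIH that opens the DNA. It was at 12.28 and 12.34 in control and 10.51 and 10.24 in starved PC3 cells. In CWR22Rv1 cells it was at 10.86, 10.15 and 10.09 at 0, 24 and 48 h and at 9.64, 8.97 and 9.28 in control, starved and DMKG-treated cells. All starved arrays lay below their controls. ERCC2 fell by 1.93 in PC3 cells (limma, standard error 0.18, adjusted p = 0.000389) and differed by -0.72 in CWR22Rv1 cells (standard error 0.18, adjusted p = 0.0533). The difference between the lines was -1.21 (95% interval -1.80 to -0.63, adjusted p = 0.0393).

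The 250 bases before the start of ERCC2 (chr19:45370574-45370823, minus strand) hold the CCAAT box at 3 places, in capitals, 1 as CCAAT and 2 as its reverse complement. The box was in 26 of the 61 windows of repair genes (42.6%).
ERCC2 promoter: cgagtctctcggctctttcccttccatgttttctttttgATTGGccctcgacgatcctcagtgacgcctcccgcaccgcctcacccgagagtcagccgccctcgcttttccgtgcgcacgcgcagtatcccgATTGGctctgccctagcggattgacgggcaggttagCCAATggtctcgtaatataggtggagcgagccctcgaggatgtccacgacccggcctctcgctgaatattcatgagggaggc
None of the other motifs searched was in this window.

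ERCC1, which anchors the nuclease that cuts on the 5′ side of the lesion, was at 12.44 and 12.19 in control and 11.21 and 10.79 in starved PC3 cells. In CWR22Rv1 cells it was at 10.07, 9.13 and 9.21 along the time course and at 8.96, 8.57 and 8.48 in the DMKG experiment. ERCC1 fell by 1.32 in PC3 cells (limma, standard error 0.22, adjusted p = 0.00525), with a difference of -0.63 in CWR22Rv1 cells (adjusted p = 0.148). ERCC4, the nuclease that ERCC1 anchors, had the largest response of the 9 genes not called. It was at 7.80, 9.08 and 8.55 along the time course, 7.95, 8.50 and 8.45 in the DMKG experiment, 9.09 and 9.23 in control PC3 and 9.01 and 9.05 in starved PC3 cells. Its differences were 0.65 in CWR22Rv1 (adjusted p = 0.0643) and -0.13 in PC3 cells (adjusted p = 0.674).

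ERCC8, which acts in repair where transcription has stalled, and GTF2H5, the smallest subunit of TFIIH, fell in CWR22Rv1 cells. GTF2H5 was at 10.08, 9.24 and 9.07 at 0, 24 and 48 h, and at 10.23 in control, 8.60 in starved and 8.69 in DMKG-treated cells. It fell by 1.32 (limma, standard error 0.21, adjusted p = 0.0127). In PC3 cells it was at 10.29 and 10.11 in control and 9.85 and 9.76 in starved cells, a difference of -0.40 (95% interval -0.87 to 0.08, adjusted p = 0.230). ERCC8 was at 7.50, 6.32 and 6.39 along the time course and at 7.11, 6.11 and 6.68 in the DMKG experiment. It fell by 1.06 (standard error 0.22, adjusted p = 0.0299), with every starved array and all PC3 arrays within the range of the negative controls, so the size of the fall is uncertain. In PC3 cells it was at 6.76 and 6.90 in control and 5.95 and 6.51 in starved cells, a difference of -0.60 (adjusted p = 0.0951). For both genes the starved arrays lay below their controls in every set, and the difference between the lines was not called (adjusted p = 0.125 for GTF2H5 and 0.470 for ERCC8).

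The subunits of TFIIH did not move as 1 group. GTF2H1, which ties the core of the complex together, was at 12.94 and 12.92 in control and 13.48 and 13.53 in starved PC3 cells, and rose by 0.58 (limma, standard error 0.17, adjusted p = 0.0495). In CWR22Rv1 cells it was at 12.50, 12.38 and 12.56 along the time course and at 11.16, 10.96 and 11.16 in the DMKG experiment. CDK7 and CCNH, the kinase and the cyclin that attach to the core, also rose in PC3 cells, by 0.85 (adjusted p = 0.0113) and 1.12 (adjusted p = 0.00576). Their partner MNAT1 was not called there, with a difference of 0.14 (adjusted p = 0.669). ERCC3, the second helicase, differed by -0.47 in PC3 (adjusted p = 0.153) and 0.30 in CWR22Rv1 cells (adjusted p = 0.497). GTF2H4 had the smallest response of the uncalled genes of this pathway, from 8.85 to 9.09 over the PC3 arrays, at 7.73, 7.93 and 8.14 along the time course and at 8.38, 8.18 and 8.0 in the DMKG experiment. The 9 uncalled genes also include lesion sensors (XPA, XPC, DDB1 and RAD23B), the nuclease ERCC5 and GTF2H3, and their differences ran from -0.47 to 0.65 in CWR22Rv1 and from -0.47 to 0.56 in PC3 cells.

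In mismatch repair 4 of 5 genes lay above 0 in PC3 cells, as did 9219 of all 17687 genes, and the median was 0.67. It had 1 gene called in each direction, where 10.0% of all genes fell and 9.59% rose. MSH6, a MutS subunit that detects single mispairs, was at 11.06 and 10.93 in control and 10.13 and 10.45 in starved PC3 cells, and fell by 0.71 (limma, standard error 0.19, adjusted p = 0.0334). MLH3, a MutL subunit, was at 9.04 and 9.0 in control and 9.69 and 9.96 in starved cells, and rose by 0.81 (standard error 0.19, adjusted p = 0.0213). The groups did not overlap for any of the 5 genes in PC3 cells, which also held for 28.6% of all genes in the lower and 31.3% in the higher direction. In CWR22Rv1 cells MSH6 was at 7.95, 7.96 and 7.57 along the time course and at 8.49, 8.11 and 7.85 in the DMKG experiment. MLH3 was at 7.44, 7.48 and 7.81 along the time course and at 8.03 on all 3 arrays of the DMKG experiment.

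PMS1 and PMS2, further MutL subunits, and MSH3, a MutS subunit for larger loops, were not called, with differences of 0.51 to 0.75 in PC3 and -0.30 to 0.20 in CWR22Rv1 cells. PMS2 was at 10.31 and 10.07 in control and 10.89 and 10.99 in starved PC3 cells (adjusted p = 0.0685). In CWR22Rv1 cells PMS2 was at 11.46, 11.42 and 11.07 along the time course and at 10.69, 11.26 and 11.07 in the DMKG experiment, so the starved array was lower in one experiment and higher in the other. MSH3 was at 9.41 and 9.63 in control and 9.87 and 10.18 in starved PC3 cells (adjusted p = 0.151). It was at 7.22, 6.60 and 6.62 along the time course and between 6.91 and 6.92 in the DMKG experiment. No gene of this pathway was called in CWR22Rv1 cells, where the median was 0.09.

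**Figure D2:**
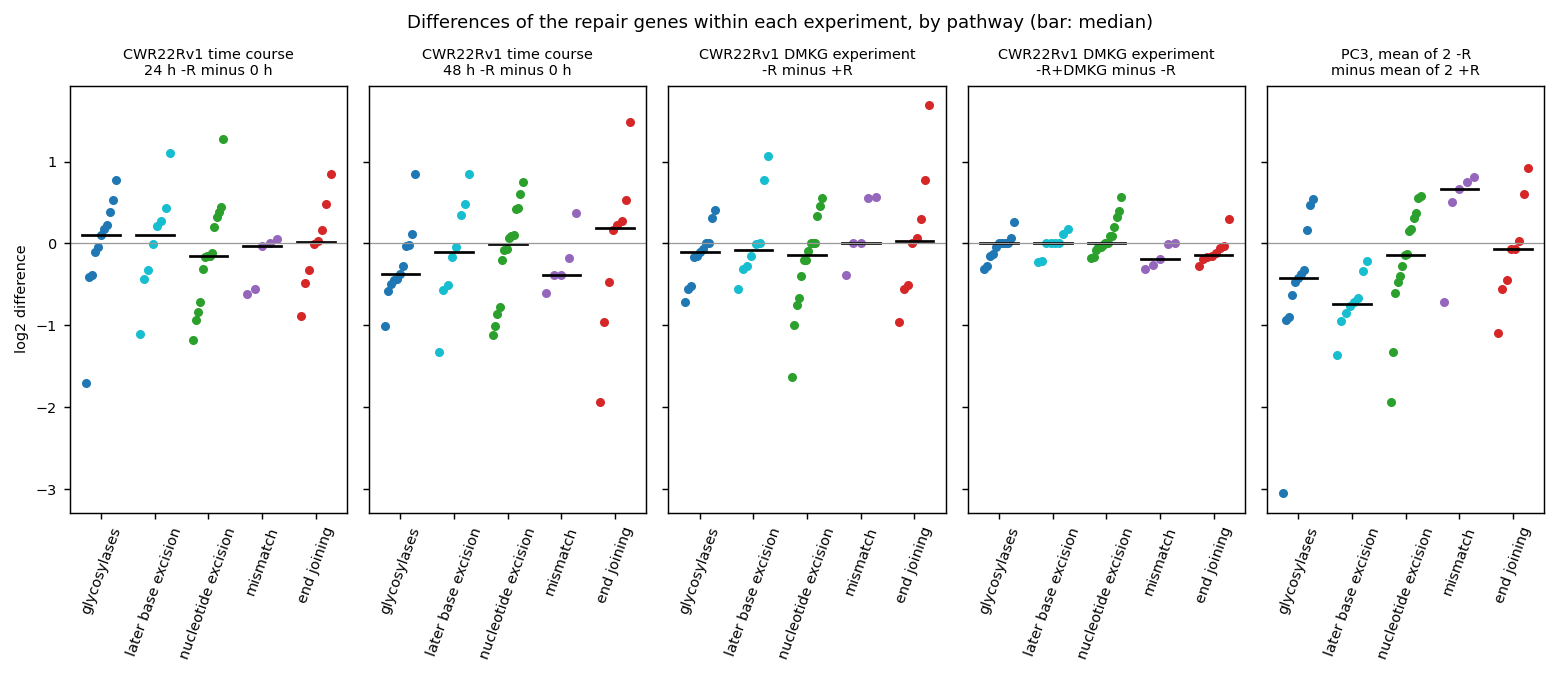
Log2 difference (vertical axis) of each repair gene, grouped along the horizontal axis by pathway, in 5 panels: starved minus 0 h in the CWR22Rv1 time course at 24 h and at 48 h, starved minus control and DMKG minus starved in the DMKG experiment, and the difference between means in PC3 cells. Points are genes and black bars group medians. In PC3 cells the later genes of base excision centre on -0.74 and those of mismatch repair on 0.67, and the panel of DMKG is the narrowest.

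Over all 46 genes, the groups of PC3 arrays did not overlap for 27 genes that were lower in starved cells (28.6% of all genes) and 12 that were higher (31.3% of all genes). In CWR22Rv1 cells 18 genes were lower in the starved array of both experiments (24.5% of all genes), 8 were higher in both (26.4% of all genes) and 13 had opposite signs (27.4% of all genes). The remaining 7 had equal values in the DMKG experiment.

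**Figure D3:**
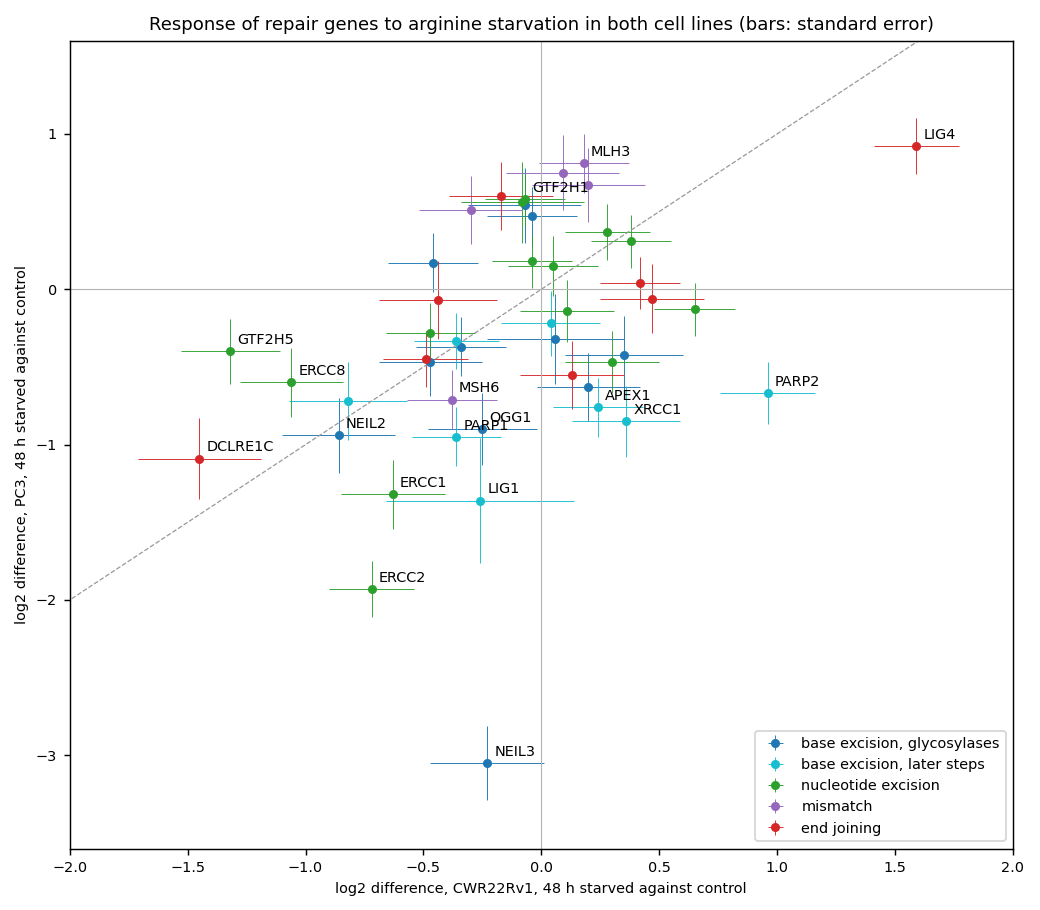
Log2 difference of starved against control cells at 48 h in CWR22Rv1 (horizontal axis) and PC3 cells (vertical axis), with 1 point for each of the 46 genes, coloured by pathway, standard errors as bars and the dashed line at equal values. The 17 called genes are named. NEIL3 lies at -0.23 and -3.05, PARP2 at 0.96 and -0.67, and LIG4 at 1.59 and 0.92.

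The difference between the lines was called for 3 of 46 genes, against 4.40% of all genes. For NEIL3, PARP2 and ERCC2 the response to starvation was lower in PC3 than in CWR22Rv1 cells, as it was for 2.43% of all genes. When the array at 0 h or that at 48 h of the time course, either PC3 control or the first starved PC3 array was left out, 1 of the 3 was called. It was 2 without the second starved PC3 array, and 0 when the DMKG experiment lost its control or its starved array. No repair gene was called with a higher response in PC3 cells, where 1.97% of all genes were.

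After 24 h no repair gene was called, and 0% of all genes were. At an unadjusted p under 0.05 from limma, 6 of the 46 were lower and 4 higher, against 5.96% and 6.30% of all genes. Each condition of the time course had 1 array. NEIL2, ERCC8 and APEX2 were lower at 24 h than at 0 h by 1 or more (1.54% of all genes), with differences of -1.70, -1.18 and -1.10, and lay within the range of the negative controls at 24 h. ERCC4 and PARP2 were higher by 1 or more (1.54% of all genes), with differences of 1.28 and 1.11. ERCC1, ERCC2 and ERCC8 had differences from 0 h of -0.93, -0.71 and -1.18 at 24 h and of -0.86, -0.77 and -1.12 at 48 h. DCLRE1C and LIG4 were further from it at 48 h, with differences of -0.89 at 24 h and -1.94 at 48 h for DCLRE1C and of 0.85 and 1.48 for LIG4.

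With DMKG no repair gene and 0% of all genes were called, and 0 of the 46 passed an unadjusted p under 0.05, against 1.11% of all genes lower and 0.922% higher. The array with DMKG lay above the starved array for 13 of 46 genes (36.1% of all genes), below it for 24 (37.6% of all genes) and was equal for 9. Only ERCC8 differed by 0.5 or more, at 6.68 with and 6.11 without DMKG, with 7.11 in control cells (2.97% of all genes lay that far above), and none of the 46 lay as far below (3.18% of all genes). Its fitted difference was 0.60 (95% interval -0.07 to 1.27). DCLRE1C differed by 0.30, with a fitted difference of 0.54 (95% interval -0.26 to 1.34), ERCC2 by 0.32 and GTF2H5 by 0.09. LIG4 and PARP2 were lower with DMKG, with differences of -0.06 and -0.23. These differences and those of starvation share the starved array. Because both CWR22Rv1 experiments share a 48 h effect in the model, any gap between their 48 h responses enters the fitted values.

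Of 18 other genes of these pathways with a value, 1 fell and 1 rose in CWR22Rv1 cells at 48 h, where 3.74% of all genes fell and 3.20% rose. In PC3 cells 6 fell and 3 rose, where 10.0% of all genes fell and 9.59% rose. FEN1, the flap endonuclease of long-patch base excision and replication, fell in both lines, with differences of -0.95 (adjusted p = 0.0181 from limma) and -1.37 (adjusted p = 0.00139). DDB2, the sensor of ultraviolet damage, rose by 0.92 in CWR22Rv1 (adjusted p = 0.0435) and fell by 1.22 in PC3 cells (adjusted p = 0.00646). In PC3 cells PCNA, the sliding clamp, fell by 1.32 (adjusted p = 0.00165), and EXO1, the exonuclease of mismatch repair, fell by 2.37 (adjusted p = 0.000481). POLQ, the polymerase of alternative end joining, fell by 1.36 (adjusted p = 0.00796), and HMGB1, a chromatin protein, fell by 0.61 (adjusted p = 0.0389). APTX, which clears blocked ends, rose by 0.70 (adjusted p = 0.0412), next to CDK7 and CCNH.

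Few arrays carried the calls. Leaving out the array at 24 h or that with DMKG could not change the calls at 48 h, since each had an effect of its own in the model. In CWR22Rv1 cells none of the 46 genes was called when the DMKG experiment lost its control array or its starved array. With the array at 0 h or that at 48 h of the time course left out 2 were, GTF2H5 and LIG4, and without either PC3 control array 3 were, GTF2H5, LIG4 and DCLRE1C. In PC3 cells 4, 5, 6 and 4 genes were called without the first control, second control, first starved and second starved array. NEIL3, ERCC1 and ERCC2 kept their call in PC3 cells without any 1 of the 10 arrays. LIG1 lost it without 7 of them, among them 4 CWR22Rv1 arrays. APEX1, XRCC1, GTF2H1 and MSH6 lost theirs without any of the PC3 arrays, and OGG1, PARP1 and MLH3 kept it only without the first starved array of the 4, NEIL2 only without the second starved array, LIG4 only without the second control and DCLRE1C only without the first control. In CWR22Rv1 cells PARP2 and ERCC8 were called only with all 4 arrays of the 48 h comparison and both PC3 controls in the fit.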

How the data were processed

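Of the 10 arrays 6 held RNA of CWR22Rv1 and 4 RNA of PC3. The deposited log2 values come from the authors' Transcriptome Analysis Console. Its version and how it normalized the arrays are not given in the sources read here. Probe sets were named from the platform annotation: 17709 of 24351 carry 1 symbol, and the brightest of several stood for a gene, which left 17687 genes. A single limma fit (limma 3.58.1, R 4.3.3) gave every comparison. It had 3 intercepts, 1 a set (time course, DMKG experiment, PC3), and 4 effects, 3 residual degrees of freedom and a prior of 5.09. Conditions with 1 array borrow the spread of the others. The number of arrays limits the precision. The script was tested on simulated data of the same design. The members and lists were chosen with earlier results of these data known. Full statistics are given for called members and DCLRE1C, and values by array for the largest and smallest response among the uncalled members of each pathway. Other settings were quantile normalization or centring of all arrays, the lowest 30% of genes left out, each line alone, the trend and robust variant of limma, all probe sets averaged, no experiment term, PC3 replicates as a block, separate CWR22Rv1 effects, a 2-fold minimum, the methods' t-test and each array left out. Leaving out genes with equal values was chosen after seeing the data. Promoters come from RefSeq (GRCh38.p14). Drawings used matplotlib under Python.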

Additional observations from a re-analysis of the deposited data

Results flagged for a closer look

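In 3 genes the response to starvation differed between the cell lines by the test of the difference itself, the contrast of PC3 minus CWR22Rv1 in limma. For NEIL3 the difference was -2.83 (adjusted p = 0.00639), for PARP2 -1.63 (adjusted p = 0.0215) and for ERCC2 -1.21 (adjusted p = 0.0393). PARP2 was higher in 2 of 2 starved CWR22Rv1 arrays at 48 h and lower in 2 of 2 starved PC3 arrays, while ERCC2 was lower in all of these and NEIL3 was lower in all of them by unequal amounts. The responses of the lines also differed in the cell division list, where the difference was called for 11 of 13 genes. All 11 had the lower response in PC3 cells, and the median difference over the list was -2.08. The part of this list in the differences of the 3 repair genes was not tested. Over the leave-outs of single arrays the NEIL3 difference was called in 8 of 10, that of PARP2 in 3 and that of ERCC2 in 2.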

How the results depend on the processing

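There were 23 settings, and all but the 2-fold minimum were also applied to single called genes where they could be fitted. Of the 472 values recomputed, 333 kept their call, 139 lost it and 0 changed direction. The 333 include settings that could change little or nothing. These are the array at 24 h or that with DMKG left out, and probe sets averaged, since each repair gene had 1. At 48 h in CWR22Rv1 cells the 5 called repair genes became 8 with the lowest 30% of genes left out and 9 with the trend and robust variant of limma. They became 0 with each cell line alone, without a term for the experiment, or with the methods' t-test after adjustment. Before adjustment the t-test called 5, but not the same 5: GTF2H5 and ERCC8 were among them, while LIG4, PARP2 and DCLRE1C were not. With a single array left out the count could fall to 0. The 14 in PC3 cells became 5 with a 2-fold minimum, 1 without a term for the experiment and 0 with the adjusted t-test (18 unadjusted), and 4 to 16 with single arrays left out. The 3 genes that differed between the lines became 5 with trend and robust, 0 without the experiment term, and 0 to 3 with single arrays left out. Counts at 24 h and with DMKG stayed at 0 throughout. The cause was not tested. The deviations of both PC3 arrays with replicate number 1 were not correlated over genes (r = -0.0269). With 2 arrays a group this cannot show whether the replicate numbers mark paired cultures. With these numbers as a replicate block the PC3 count was 11 (without XRCC1, GTF2H1 and MSH6). The count in CWR22Rv1 cells was then 5 and that of the difference 2 (without ERCC2).

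Between 7 and 18 of the 46 genes lay at or below the 95th percentile of the negative controls on an array, where a fall may not show.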
